A study of Mus musculus with 4 samples.

Results

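Transcript levels of 8 genes that make, release, take up or break down GABA and glycine were examined in cells of the *Prdm13* lineage sorted from the mouse neural tube. The genes were taken by symbol from the deposited table of 24421 genes. The genes of synthesis and release are *Gad1*, *Gad2*, *Slc32a1* and *Slc6a5*, and the genes of uptake and breakdown are *Slc6a9*, *Slc6a11*, *Slc6a13* and *Abat*. The question was how these 2 sets of 4 genes differ between heterozygous and homozygous *Prdm13* mutants.

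All embryos carried *Prdm13*GFP, a zinc-finger nuclease knock-in of GFP with a stop codon in the first exon that disrupts the gene, so there was no wild-type group. GFP+ cells were sorted after trypsin dissociation from E11.5 neural tubes of *Prdm13* GFP/+ embryos (Het) or *Prdm13* GFP/GFP embryos (Homo), in mouse stocks of mixed ICR and C57Bl/6 background. RNA of several embryos was combined into 1 pool per genotype, and 2 libraries of polyadenylated RNA were made from each pool. The libraries are therefore technical replicates, so each SD, standard error and p-value below measures the spread of library preparation and sequencing and holds no variation between embryos.

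GABA and glycine are the main transmitters of fast inhibition in the spinal cord. Both are loaded into synaptic vesicles by the same carrier, encoded by *Slc32a1*, and GABA is first made from glutamate by the decarboxylases encoded by *Gad1* and *Gad2*. Glycine is collected by the neuronal transporter encoded by *Slc6a5*, and the transmitters are cleared from the extracellular space by related transporters that are widely found on glia. In the dorsal neural tube, neurons that express PAX2 and LHX1/5 become inhibitory, and neurons that express TLX1/3 become excitatory.

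Stretches of 250 bases ending at an annotated start site are shown for the 4 genes of synthesis and release, because these genes differed together, and for *Slc6a11*, the one gene of the set that was called in the other direction. The sequences are those of RefSeq on GRCm38.p6, read 5' to 3' on the plus strand, with each E-box (CANNTG, the core that basic helix-loop-helix factors bind, which reads the same on both strands) in capitals. The windows are chr2:70561879-70562128 for *Gad1*, chr2:22622077-22622326 for *Gad2*, chr2:158610508-158610757 for *Slc32a1*, chr7:49910049-49910298 for the first of 2 start sites of *Slc6a5* in the promoter set used, and chr6:114130991-114131240 for *Slc6a11*. Those of *Gad1*, *Gad2*, *Slc32a1* and *Slc6a5* lie inside the gene spans given below, so any start further upstream is not covered. That of *Slc6a11* ends where its gene span begins.
Gad1: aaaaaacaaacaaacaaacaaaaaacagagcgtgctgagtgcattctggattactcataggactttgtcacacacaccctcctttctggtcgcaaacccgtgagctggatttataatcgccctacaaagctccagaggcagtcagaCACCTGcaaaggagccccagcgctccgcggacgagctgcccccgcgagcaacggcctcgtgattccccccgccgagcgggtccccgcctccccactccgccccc
Gad2: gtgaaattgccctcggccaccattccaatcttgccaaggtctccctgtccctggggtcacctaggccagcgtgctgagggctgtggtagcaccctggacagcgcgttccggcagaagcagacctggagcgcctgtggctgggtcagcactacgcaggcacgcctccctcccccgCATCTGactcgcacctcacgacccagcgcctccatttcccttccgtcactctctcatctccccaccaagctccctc
Slc32a1: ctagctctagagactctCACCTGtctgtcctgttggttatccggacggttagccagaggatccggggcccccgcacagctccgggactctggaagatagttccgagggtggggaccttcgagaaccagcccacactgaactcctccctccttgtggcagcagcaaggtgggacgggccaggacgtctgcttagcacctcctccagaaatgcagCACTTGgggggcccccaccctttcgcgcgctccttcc
Slc6a5: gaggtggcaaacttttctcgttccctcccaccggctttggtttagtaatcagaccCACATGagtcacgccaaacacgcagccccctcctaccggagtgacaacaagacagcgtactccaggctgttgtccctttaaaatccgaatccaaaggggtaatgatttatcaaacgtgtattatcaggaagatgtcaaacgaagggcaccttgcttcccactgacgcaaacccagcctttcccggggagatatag
Slc6a11: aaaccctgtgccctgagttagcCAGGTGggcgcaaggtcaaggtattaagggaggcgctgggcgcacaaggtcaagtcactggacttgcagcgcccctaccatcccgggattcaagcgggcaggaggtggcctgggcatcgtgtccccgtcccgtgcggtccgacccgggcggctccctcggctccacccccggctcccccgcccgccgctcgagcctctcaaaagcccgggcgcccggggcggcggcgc

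The E-box of *Gad1* (CACCTG) began 104 bases before the start site and that of *Gad2* (CATCTG) 76 bases before it. The window of *Slc32a1* held CACCTG at 233 bases and CACTTG at 37 bases before the start, and that of *Slc6a5* held CACATG at 195 bases. *Slc6a11* also held 1 E-box, CAGGTG, 228 bases before its start. At least 1 E-box was present in 66.2% of the 32536 promoter windows of this length, so its presence does not set these genes apart. CACCTG, counted on either strand, was found in 17.3% of all windows and here in *Gad1*, *Slc32a1* and *Slc6a11*, and TTTCCC, likewise on either strand, in 22.0% of all windows and here in *Gad2* and *Slc6a5*. CAGCTG was found in none of these 5 windows and in 13.1% of all windows. The RefSeq table matched 7 of the 8 genes, and the windows of *Slc6a9* and *Slc6a13* are not shown.

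Levels are given as RPKM, reads relative to exon length and library size, as the authors deposited them after TMM scaling. The RPKM values of a library rise in steps of 1 read, from which the reads of 19198 of the 19200 genes above 0 could be worked out. Recovered reads summed to between 12078396 and 19213896 per library, and 11774 to 11831 genes had an RPKM of at least 1. *Prdm13* itself had 114 and 127 RPKM in the Het libraries and 310 and 324 RPKM in the Homo libraries, which checks the labels only in part, since transcripts of the GFP allele count toward the gene. Marker lists were compared between the genotypes. Of the dorsal neuron markers, all but *Gbx1* and *Prrxl1* are also in the study's own list of selected genes, made on these samples. Their differences are therefore not independent evidence and do not check which cells were sorted. All 5 markers of dorsal inhibitory neurons (*Pax2*, *Pax8*, *Lhx1*, *Lhx5*, *Gbx1*) were called lower in Homo, with a summed level of 424 to 462 RPKM in Het and 85.4 to 90.8 RPKM in Homo. All 5 markers of dorsal excitatory neurons (*Tlx3*, *Tlx1*, *Lmx1b*, *Prrxl1*, *Slc17a6*) were called higher, from 11.8 to 13.6 RPKM in Het to 134 to 141 RPKM in Homo. Of these *Tlx1*, with 0.936 and 0.914 RPKM in Het, entered the test only through its Homo level, so it could only be called higher. Of 7 pan-neuronal markers 1 was called higher (*Stmn2*) and 1 lower (*Snap25*). Their summed level was 1651 to 1697 RPKM in Het and 2010 to 2091 RPKM in Homo. Most of it was *Tubb3*, which was not called (1017 and 1062 RPKM in Het, 1265 and 1372 RPKM in Homo). Of 5 progenitor markers 0 were called by limma or by limma voom on the recovered reads, with 4 at an unadjusted p under 0.05. Whatever the fold, 4 pan-neuronal markers passed the limma adjusted p of 0.05 as higher in Homo and 1 as lower. Likewise 2 progenitor markers passed as higher (*Pax6*, *Hes5*) and 1 as lower (*Sox2*).

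The comparison took in the 12046 genes whose mean reached 1 RPKM in Het or in Homo, with limma on log2(RPKM + 0.1), two-sided and Benjamini-Hochberg adjusted over all of them. Calls needed a fold of 1.5 or more besides an adjusted p below 0.05. By this rule 2.67% of the genes tested were called lower in Homo and 3.65% higher. Adding 0.1 to each RPKM makes the fold changes of low genes smaller than the ratio of their means. Since exact permutation over 2 and 2 libraries reaches no two-sided p below 0.333, the limma fit was used, in which a gene's spread is estimated with the help of the others.

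The 4 genes of synthesis and release were all called lower in Homo, 4 of 4 against the background of 2.67%, and each fell by between 78.1% and 83.8% in mean RPKM. Of the genes of uptake and breakdown, *Slc6a9* was called lower, a call that was lost under 6 of 13 alternatives. *Abat* was lower by less than the fold required, and *Slc6a13* had at most 3 reads in a library. *Slc6a11* was called higher, a call that was lost under 8 of 13 alternatives and that only a higher Homo level could have given, since its Het mean was under the filter. Of the 8 genes, 7 passed the filter on low values, and 5 of these 7 were called lower and 1 higher. The study's own list of selected genes, made on these samples, holds *Gad1*, *Gad2*, *Slc32a1* and *Slc6a5*, so their decrease is not independent evidence. In sorted bulk RNA, fewer cells of a type and less RNA per cell cannot be told apart, and this holds for every difference below.

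**Figure D1:**
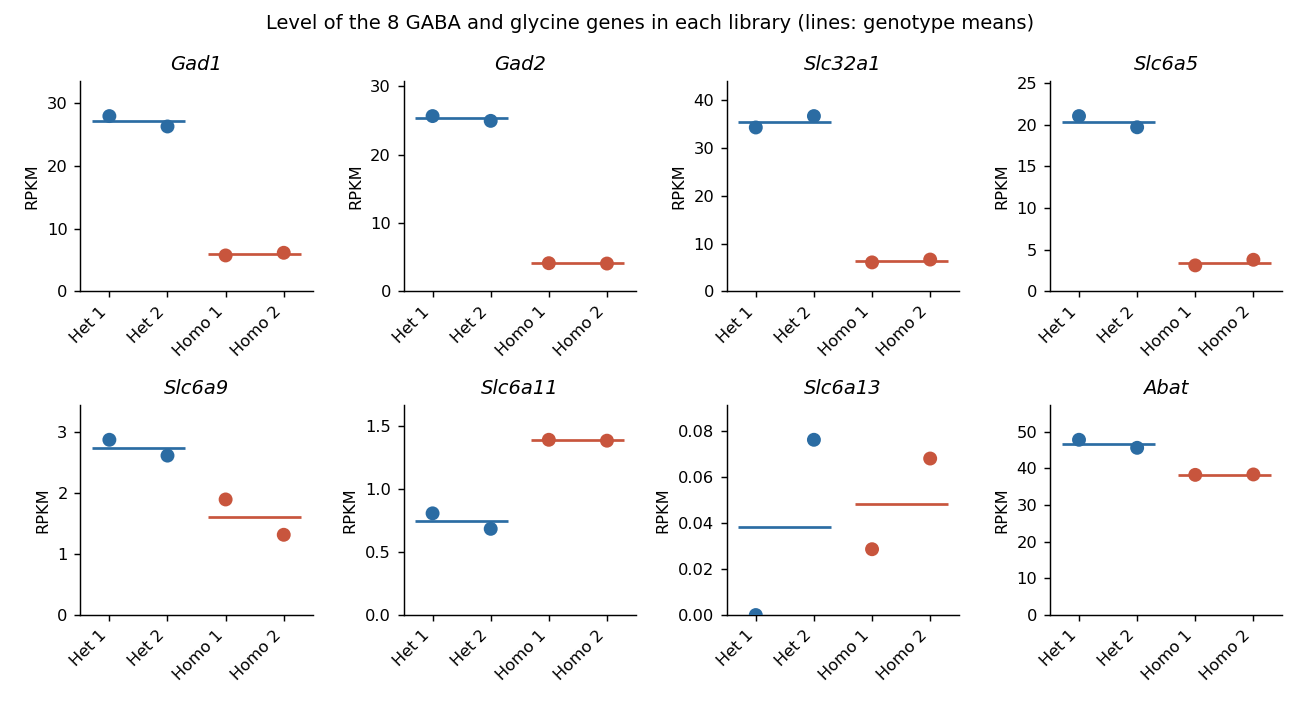
RPKM of each of the 8 genes (vertical axes, each starting at 0 with its own scale) in the 4 libraries, with Het in blue, Homo in red and a line at each genotype's mean. The Het and Homo libraries are apart for every gene except *Slc6a13*, which lies under 0.08 RPKM throughout. Being apart is not particular to these genes, since exact permutation over 2 and 2 libraries gives it a two-sided p of 0.333. The libraries of the uncalled genes *Slc38a2* and *Got2* were also apart, while those of *Nlgn2* overlapped, and the share over all genes tested was not worked out.

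*Gad1* (gene ID 14415, chromosome 2 from 70561303 to 70602014 of GRCm38) encodes the larger of the glutamate decarboxylases, which makes GABA throughout the neuron. Its level was 28.0 and 26.3 RPKM in the Het libraries and 5.73 and 6.15 RPKM in the Homo libraries, from 1046, 1558, 301 and 272 reads. Both Homo libraries lay far below both Het libraries. The mean fell 4.57-fold, from 27.1 ± 1.17 to 5.94 ± 0.300 RPKM (SD, n = 2 libraries of 1 pool), and the log2 fold change was -2.17 (standard error 0.0667, 95% confidence interval -2.33 to -2.01, limma adjusted p = 9.59e-06).

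*Gad2* (gene ID 14417, chromosome 2 from 22621015 to 22693877) encodes the smaller decarboxylase, which is anchored to synaptic vesicles. It had 25.7 and 25.0 RPKM in Het and 4.12 and 4.07 RPKM in Homo, from 1670, 2572, 377 and 313 reads. The groups did not overlap, and the libraries of a genotype were nearly level. The mean was 6.18-fold lower in Homo, the most of the 8 genes, and its log2 fold change was -2.60 (standard error 0.0597, interval -2.74 to -2.45, limma adjusted p = 3.40e-06). Of the 12046 genes tested, *Gad2* stood at place 21 from the most negative log2 fold change.

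*Slc32a1* (gene ID 22348, chromosome 2 from 158607260 to 158615747), the vesicular carrier of both transmitters, was the highest of the 4 in Het. It had 34.3 and 36.6 RPKM in Het against 6.05 and 6.65 RPKM in Homo, from 1112, 1883, 276 and 255 reads. Again no Homo library came near a Het library. Its mean was 5.58-fold lower, and its log2 fold change was -2.46 (standard error 0.0702, interval -2.63 to -2.29, limma adjusted p = 7.31e-06). The long non-coding gene *Gm14204*, whose annotated span overlaps that of *Slc32a1* on the opposite strand, had 12.5 and 12.2 RPKM in Het and 3.21 and 2.33 RPKM in Homo, and it differed by -2.13 on the log2 scale (standard error 0.142, limma adjusted p = 0.000247). Whether counting used strand is not given in the sources used here, so reads of the shared stretch cannot be assigned between them. *Gad1os*, which overlaps *Gad1*, stayed under 0.68 RPKM in each library.

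*Slc6a5* (gene ID 104245, chromosome 7 from 49906984 to 49963864), the neuronal glycine transporter and a marker of glycinergic neurons, was the lowest of the 4. Its level was 21.0 and 19.7 RPKM in Het and 3.11 and 3.78 RPKM in Homo, from 620, 919, 129 and 132 reads. The fall in the glycine gene was thus of the same order as that in the GABA genes, 5.90-fold in mean RPKM. The log2 fold change was -2.53 (standard error 0.101, interval -2.77 to -2.29, limma adjusted p = 2.71e-05), and its interval overlaps those of *Gad1*, *Gad2* and *Slc32a1*.

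*Slc6a9* (gene ID 14664, chromosome 4 from 117835258 to 117869305) encodes the other glycine transporter, which is found mainly on glia and clears glycine from around synapses. It had 2.88 and 2.62 RPKM in Het and 1.90 and 1.32 RPKM in Homo, from 109, 157, 101 and 59 reads. The groups did not overlap, but the Homo libraries differed from each other by more than the Het libraries did. The log2 fold change was -0.76 (standard error 0.190, interval -1.21 to -0.30, limma adjusted p = 0.0369), a 1.71-fold lower mean, well short of that of *Slc6a5*. The call was lost without Het 1 (adjusted p = 0.162), without Het 2 (0.121) and without Homo 2 (0.143), and kept without Homo 1 (0.0365). The neighbouring gene *Ccdc24*, whose span overlaps the 3' end of *Slc6a9*, had 5.46 and 6.65 RPKM in Het and 7.30 and 6.33 RPKM in Homo.

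*Slc6a11* (gene ID 243616, chromosome 6 from 114131241 to 114249886) encodes a GABA transporter known from astrocytes. It was low in every library, with 0.808 and 0.685 RPKM in Het and 1.39 and 1.38 RPKM in Homo, from 38, 51, 92 and 77 reads. The Homo libraries were level with each other and above both Het libraries. The log2 fold change was 0.82 (standard error 0.223, interval 0.28 to 1.35, limma adjusted p = 0.0473), a 1.86-fold higher mean. *Slc6a11* entered the test only through its Homo level, so a gene at this level had to be higher in Homo to be tested at all, and the call was lost on leaving out any 1 of the 4 libraries (adjusted p from 0.0628 without Het 1 to 0.141 without Homo 1). Of 5 astrocyte and radial glia markers 2 were tested. *Slc1a3*, which the study associates with PRDM13 binding, was called higher (2.57 and 2.82 RPKM in Het, 12.4 and 11.4 RPKM in Homo). *Fabp7* was not called (log2 fold change -0.07, limma adjusted p = 0.449). *Gfap* and *Aqp4*, which define mature astrocytes, were at or under 0.0207 RPKM in every library. *Aldh1l1* was also too low to be tested, with 0.168 and 0.142 RPKM in Het and 0.259 and 0.261 RPKM in Homo. These values rest on 6, 8, 13 and 11 reads. The summed level of the list, mostly *Fabp7*, was 630 to 707 RPKM in Het and 642 to 648 RPKM in Homo. The part of such cells in the level of *Slc6a11* was not tested.

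*Slc6a13* (gene ID 14412, chromosome 6 from 121300288 to 121337721), a GABA and taurine transporter known from meninges and liver, was not tested. It had 0 and 3 reads in the Het libraries and 1 and 2 reads in the Homo libraries, or 0 and 0.0762 against 0.0286 and 0.0680 RPKM. No library exceeded the limit of 3 reads, which stands at 0.121 RPKM in Het 1, where no read was counted, and covers counting error only, so a difference was not detectable at this depth. The 6 markers of meninges and mesenchyme summed to 4.63 to 5.13 RPKM in Het and 3.49 to 3.67 RPKM in Homo, and only 1 of them was high enough to be tested.

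*Abat* (gene ID 268860, chromosome 16 from 8513429 to 8621568) encodes GABA transaminase, the mitochondrial enzyme that breaks GABA down. With 47.8 and 45.6 RPKM in Het and 38.2 and 38.3 RPKM in Homo, from 2563, 3872, 2880 and 2430 reads, it was the highest of the 8 genes in both genotypes. The Homo libraries were below both Het libraries by a small margin. The log2 fold change was -0.29 (standard error 0.0494, interval -0.40 to -0.17, limma adjusted p = 0.0106), so the adjusted p was passed, as it was for 9.95% of all genes tested in this direction and 9.76% in the other, but the 1.22-fold difference was under the fold of 1.5. The adjusted p was above 0.05 without Het 1 (0.0654), without Homo 1 (0.0714) and without Homo 2 (0.0849), as it was with no filter on RPKM (0.0930).

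The order of the levels by mean RPKM was the same in both genotypes, but the gaps were not. In Het the order was *Abat*, *Slc32a1*, *Gad1*, *Gad2*, *Slc6a5*, *Slc6a9*, *Slc6a11* and *Slc6a13*, and the libraries of neighbouring genes did not overlap, although *Gad1* and *Gad2* were separated by less than the range of *Gad1*. In Homo the values of *Slc32a1* and *Gad1* overlapped and both values of *Slc6a11* lay within the range of *Slc6a9*, so these neighbours do not differ beyond their spread. *Abat* stood 1.32-fold above *Slc32a1* in Het and 6.03-fold above it in Homo.

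**Figure D2:**
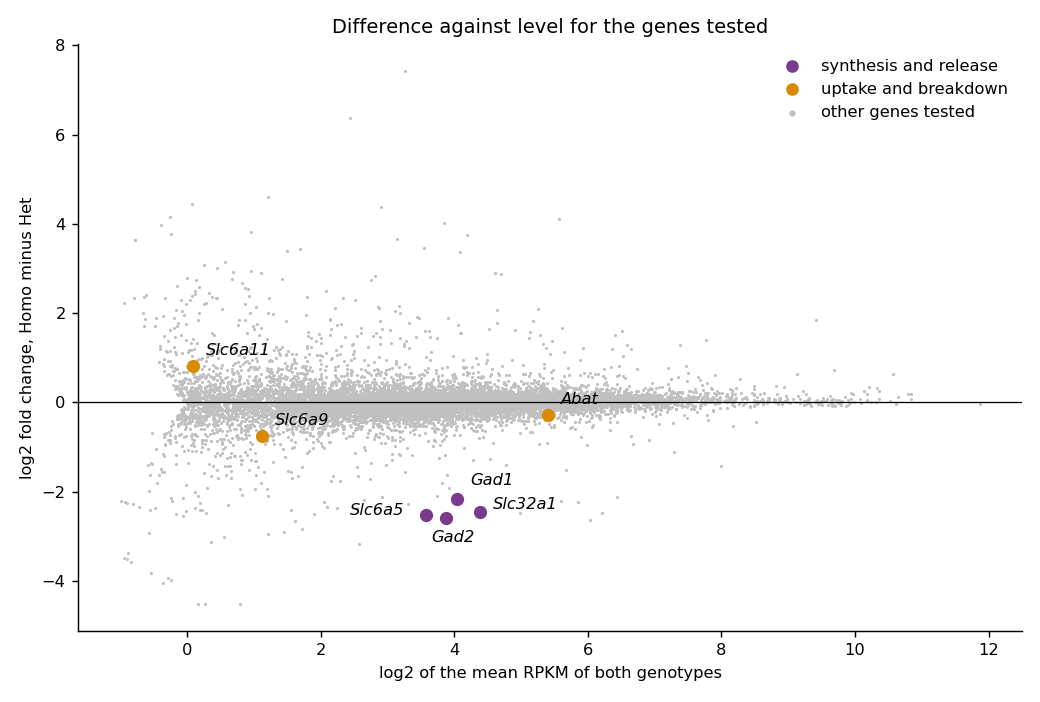
Log2 fold change, Homo minus Het (vertical axis), against the log2 of the mean RPKM of both genotypes (horizontal axis) for the genes tested, with the genes of synthesis and release in purple and those of uptake and breakdown in orange. The 4 purple genes lie between -2.60 and -2.17, while *Slc6a9*, *Slc6a11* and *Abat* lie between -0.76 and 0.82.

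Set side by side, the genes of synthesis and release had a median log2 fold change of -2.50 (4 genes, from -2.60 to -2.17), and the 3 tested genes of uptake and breakdown one of -0.29 (from -0.76 to 0.82), beside 0.01 over all genes tested. The summed level of *Gad1*, *Gad2*, *Slc32a1* and *Slc6a5* was 109 and 108 RPKM in Het and 19.0 and 20.7 RPKM in Homo. That of *Slc6a9*, *Slc6a11*, *Slc6a13* and *Abat*, of which *Abat* was by far the largest part, was 51.5 and 49.0 RPKM in Het and 41.5 and 41.1 RPKM in Homo. The summed level of synthesis and release was thus above that of uptake and breakdown in both Het libraries and below it in both Homo libraries. As a mean over the 4 genes of each set on the log2(RPKM + 0.1) scale, synthesis and release exceeded uptake and breakdown by 3.83 and 3.69 in Het and by 1.26 and 1.41 in Homo, a difference of -2.42 between the genotypes, given as a description without a test. *Slc6a13*, with at most 3 reads in a library, enters these means at a value set largely by the added 0.1, so the size of the gap depends on that constant.

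**Figure D3:**
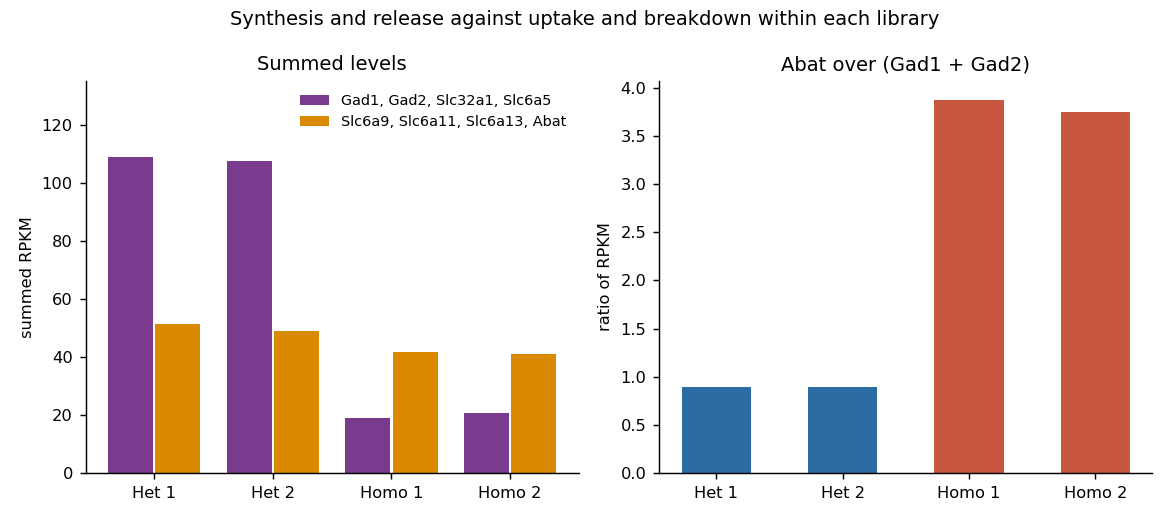
Left, summed RPKM of the 4 genes of synthesis and release (purple) and of the 4 genes of uptake and breakdown (orange) in each library. Right, the ratio of the RPKM of *Abat* to the summed RPKM of *Gad1* and *Gad2*, which is 0.891 and 0.889 in Het (blue) and 3.88 and 3.75 in Homo (red).

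Ratios within a library do not depend on its scaling. The ratio of *Abat* to the sum of *Gad1* and *Gad2*, breakdown to synthesis of GABA, was 0.891 and 0.889 in Het and 3.88 and 3.75 in Homo. Among the genes of synthesis and release the proportions changed little by comparison. *Slc32a1* relative to *Gad1* plus *Gad2* was 0.639 and 0.715 in Het and 0.614 and 0.650 in Homo, and *Slc6a5* relative to *Slc32a1* was 0.613 and 0.537 in Het and 0.514 and 0.569 in Homo. In both of these ratios the genotypes overlapped. The ratio of *Gad1* to *Gad2* did not overlap, at 1.09 and 1.05 in Het and 1.39 and 1.51 in Homo, and the confidence intervals of their log2 fold changes did not overlap either. For glycine, the ratio of *Slc6a5* to *Slc6a9* was 7.30 and 7.51 in Het and 1.64 and 2.87 in Homo, with the Homo libraries well apart from each other.

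Other GABA genes of the pathway were taken from a list made by known role, of which *Slc6a6*, *Slc6a12*, *Aldh5a1*, *Aldh9a1*, *Slc38a1*, *Slc38a2*, *Slc12a2* and *Slc12a5* are reported. Of these 8 genes 7 were tested and 0 were called by limma in either direction, with 1 at an unadjusted p under 0.05. Limma voom on the recovered reads called 1 lower, *Slc12a5*. The median log2 fold change was -0.09, and *Slc6a12*, a transporter of betaine and GABA, was too low to be tested. The gene of this list with the highest level was *Slc38a2*, an amino acid transporter that supplies glutamine, with 100 and 99.2 RPKM in Het and 92.9 and 94.0 RPKM in Homo (log2 fold change -0.09, interval -0.19 to 0.01, limma adjusted p = 0.185).

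A pair of chloride transporters in this list sets the direction of the current that GABA and glycine evoke. *Slc12a2*, which loads chloride into immature neurons, had a log2 fold change of -0.16 (limma adjusted p = 0.178). *Slc12a5*, which extrudes chloride as neurons mature, had 3.44 and 4.01 RPKM in Het and 2.47 and 2.42 RPKM in Homo. It passed the adjusted p (0.0175) and missed the fold threshold, 0.585 on the log2 scale, with a log2 fold change of -0.58. It passed both and was called lower under 5 of the 13 alternatives: a pseudocount of 0.01 (-0.60), median ratio scaling (-0.59), quantile normalization (-0.61), voom (-0.62) and without Het 1 (-0.69).

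Of 10 genes of glycine and serine supply and of glycine cleavage, all tested, 1 was called higher and 1 lower. Over all genes tested these shares were 3.65% and 2.67%. The median log2 fold change of the list was -0.01. Whatever the fold, 2 of its genes passed the limma adjusted p of 0.05 as higher and 3 as lower, beside 9.76% and 9.95% of all genes tested. *Phgdh*, the first enzyme of serine synthesis, had 126 and 130 RPKM in Het and 218 and 236 RPKM in Homo (log2 fold change 0.83, standard error 0.0521, limma adjusted p = 0.000185), and it was the highest of its list. *Psat1*, the next enzyme of the same pathway, had 77.1 and 72.8 RPKM in Het and 44.4 and 43.2 RPKM in Homo (log2 fold change -0.77, standard error 0.0509, limma adjusted p = 0.000230). The libraries of both genes were apart between the genotypes. The third enzyme, *Psph*, had a log2 fold change of 0.10 (limma adjusted p = 0.384). *Shmt2*, the mitochondrial enzyme that makes glycine from serine, passed the adjusted p (0.00124) with a log2 fold change of -0.50, under the fold required.

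Among genes that supply glutamate or the cofactor of the decarboxylases, 6 are reported (*Gls2*, *Glul*, *Glud1*, *Got1*, *Got2*, *Pdxk*). Of these 5 were tested, 0 were called and 0 passed the adjusted p alone. Limma voom on the recovered reads also called 0 of them, and 1 had an unadjusted limma p under 0.05. Their log2 fold changes lay between -0.06 and 0.16, with a median of -0.01, and the highest of them, *Got2*, had 96.7 and 96.5 RPKM in Het and 94.2 and 94.8 RPKM in Homo. Of the scaffold genes of the inhibitory postsynapse, *Gphn* and *Nlgn2*, 0 of 2 were called by limma or by voom, with 1 at an unadjusted p under 0.05. *Gphn*, which encodes the anchor of glycine and GABA receptors, passed the adjusted p (0.0290) with a log2 fold change of -0.35, and *Nlgn2*, the higher of them, had 50.8 and 56.1 RPKM in Het and 54.6 and 56.6 RPKM in Homo.

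**Figure D4:**
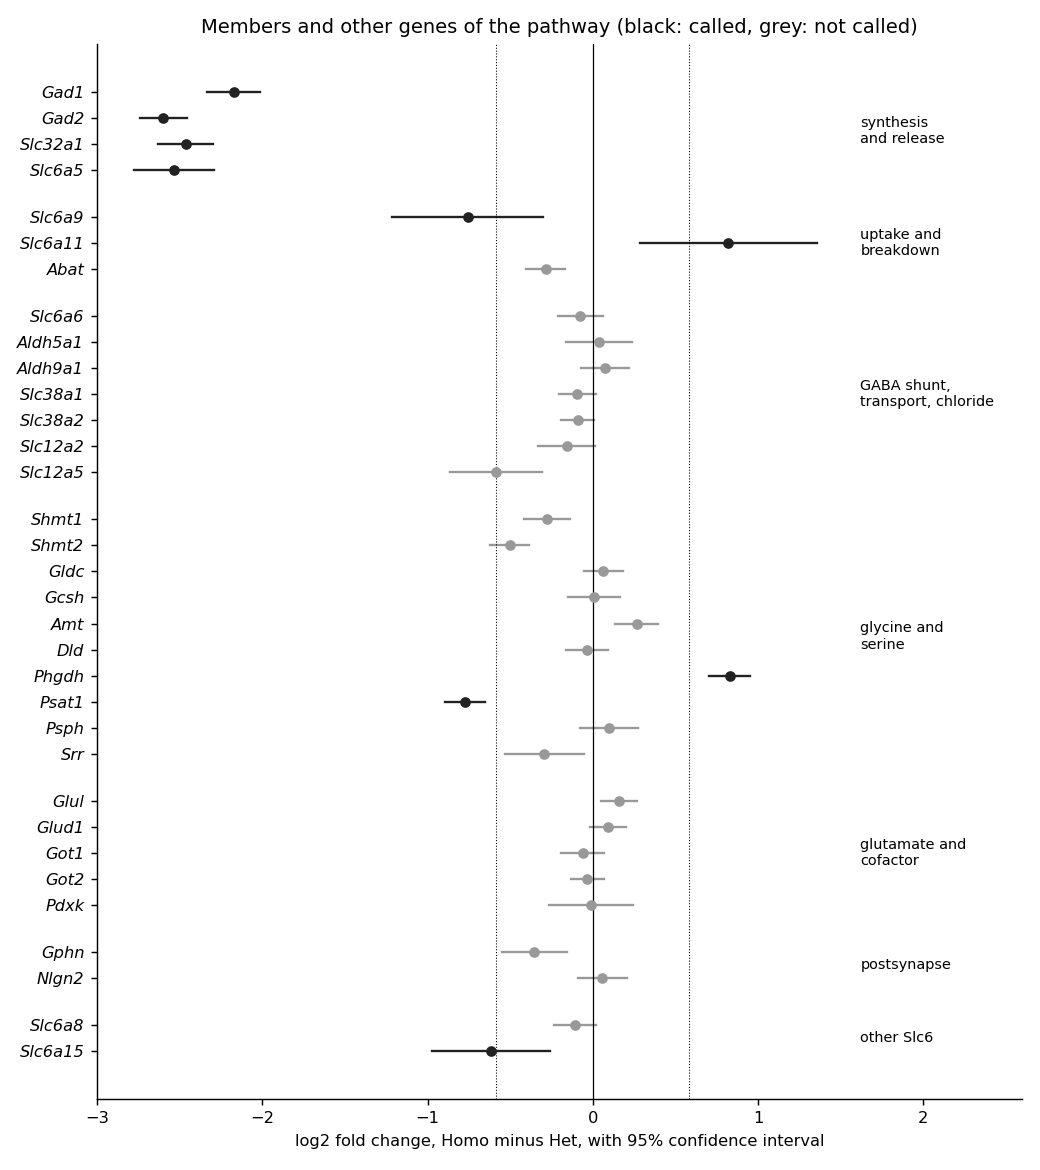
Log2 fold change, Homo minus Het, with its 95% confidence interval (horizontal axis) for the 7 tested genes of GABA and glycine synthesis and transport and the 26 tested genes of the pathway lists that are reported, in black where called and grey where not, with dotted lines at a 1.5-fold change. The intervals of *Gad1*, *Gad2*, *Slc32a1* and *Slc6a5* all end at or below -2.01, below every other gene drawn.

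*Slc6a5*, *Slc6a9*, *Slc6a11* and *Slc6a13* belong to the Slc6 family of sodium- and chloride-coupled transporters, of which 19 genes are considered here. Of these 6 reached a mean of 1 RPKM in a genotype, and the others stayed at or under a mean of 0.429 RPKM, among them *Slc6a3*, the dopamine transporter, at 0 in each library. Of the 12 further family members listed, 2 were tested: *Slc6a8*, the creatine transporter and the highest of them, had 16.7 and 16.9 RPKM in Het and 15.7 and 15.5 RPKM in Homo, and *Slc6a15*, a transporter of neutral amino acids, was called lower, with 2.16 and 2.23 RPKM in Het and 1.33 and 1.46 RPKM in Homo (log2 fold change -0.62, standard error 0.149, limma adjusted p = 0.0328). The call of *Slc6a15* was lost on leaving out any 1 library (adjusted p from 0.0953 without Homo 2 to 0.118 without Homo 1).

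**Figure D5:**
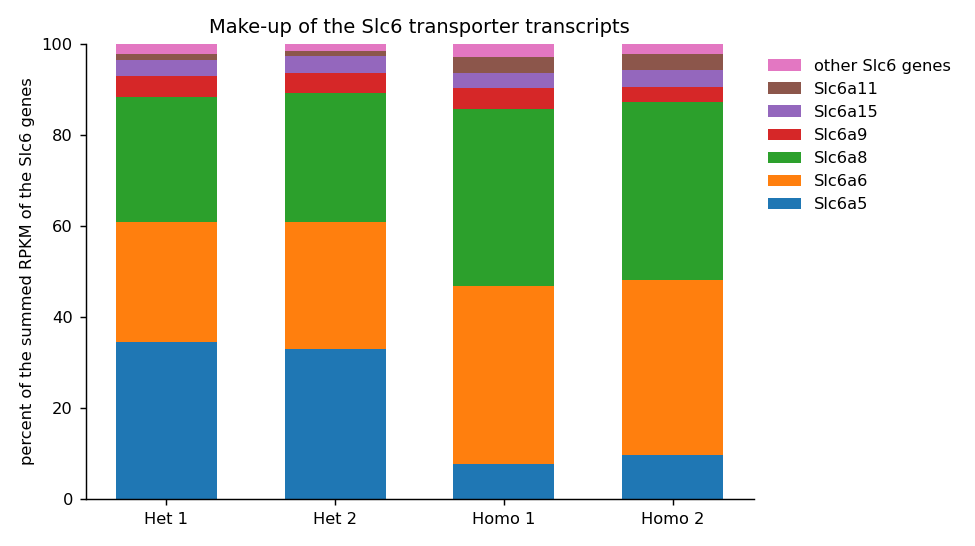
Share of each Slc6 gene in the summed RPKM of the 19 Slc6 genes considered, in percent (vertical axis), in each library. *Slc6a5* takes 34.5% and 33.0% in the Het libraries and 7.72% and 9.55% in the Homo libraries, and *Slc6a11* takes 1.33% and 1.15% in Het and 3.45% and 3.49% in Homo.

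The summed RPKM of these genes was 60.8 and 59.7 in Het and 40.3 and 39.6 in Homo. *Slc6a5* was the largest share of it in both Het libraries and stood behind *Slc6a6* and *Slc6a8* in both Homo libraries. The share of *Slc6a6*, a taurine transporter whose own level had a log2 fold change of -0.08, was 26.3% and 27.9% in Het and 39.0% and 38.5% in Homo.

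The genes most like the 4 genes of synthesis and release were found as those with the smallest Euclidean distance, over the 4 libraries, between their log2(RPKM + 0.1) relative to the Het mean and the mean of the same for the 4 genes. The nearest 8 of the genes tested were *Myo5b*, *Pax8*, *Lhx1*, *Slc7a3*, *Hmx3*, *Nrxn3*, *March4* and *Cacna2d3*, at distances of 0.0580 to 0.263. Of these *Pax8*, *Lhx1* and *Hmx3* encode transcription factors, *Nrxn3* a presynaptic adhesion protein, *Cacna2d3* a subunit of calcium channels and *Slc7a3* a transporter of basic amino acids. *Lhx1* had 121 and 131 RPKM in Het and 22.3 and 22.5 RPKM in Homo, and *Pax8* had 53.3 and 54.2 RPKM in Het and 9.27 and 9.87 RPKM in Homo. *Nrxn3* was at 7.93 and 8.11 RPKM in Het and at 1.52 and 1.44 RPKM in Homo. The 4 genes themselves lay at distances of 0.0959 (*Slc32a1*) to 0.382 (*Gad1*), and 12 other genes were nearer to the mean of the 4 than *Gad1*. This likeness rests on 4 libraries of 2 pools, and any gene that fell by about the same factor is near by this measure. *Pax8*, *Lhx1*, *Hmx3*, *Nrxn3* and *Cacna2d3* are also in the study's own list of selected genes, made on these samples. In Homo, *Slc7a3* rested on 12 and 10 reads and *Myo5b* had 0.814 and 0.902 RPKM. The Homo means of *Slc7a3* and *Myo5b* were under the filter, so these genes entered the test only through their Het level.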

How the data were processed

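Polyadenylated RNA of sorted GFP+ cells was measured in 4 libraries, 2 per genotype, grouped by the genotype in the labels. The authors aligned reads to mm10 with TopHat2 2.1.0 (per the submitters' processing notes, which also name CASAVA), counted them over RefSeq exons with featureCounts, scaled library sizes by TMM with edgeR 3.6.8 and deposited RPKM per gene, which were used as deposited.

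The file holds RPKM and not counts, so no count model was used. Genes whose mean reached 1 RPKM in Het or in Homo entered lmFit and eBayes (trend on) of limma 3.58.1 in R 4.3.3 as log2(RPKM + 0.1). Tests were two-sided, p-values were adjusted by Benjamini-Hochberg, and calls needed an adjusted p below 0.05 and a fold of 1.5 or more. Whole reads were solved from the RPKM steps to within 0.002 of a whole number in 99.99% of genes above 0, with the exon lengths of GENCODE vM21 as a guide. Solved lengths lay within 5% of annotated ones for 71.2% of genes, so library sums of reads are approximate. Libraries of a pool differed by more than read sampling (chi-square per gene 2.39 and 2.31, where sampling gives 1) and were kept as separate libraries. Python 3.11.15, numpy 2.4.6, pandas 2.3.3 and matplotlib 3.10.9 handled tables and plots. Coordinates, matched by gene ID, are those of RefSeq on GRCm38 (mm10).

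The genes and lists were chosen with earlier results of these data known. Named are all 8 genes, each called gene and the highest gene of each pathway list, and the 8 genes nearest in profile; *Slc12a2*, *Slc12a5*, *Psph*, *Shmt2*, *Gphn*, *Slc6a3*, *Slc6a6*, *Slc6a12* and the overlapping genes were named after their values were seen. Results of some genes of the pathway lists are not reported here, and the lists, sums and plots do not include them. Marker lists of endothelium (1.53 to 1.77 RPKM summed in Het, 1.60 to 1.81 in Homo), erythroid cells (40.2 to 42.6 and 42.2 to 43.5), microglia (0.179 to 0.281 and 0.151 to 0.299) and neural crest and glia (12.0 to 15.1 and 6.83 to 7.16, with *Foxd3* called lower) were also summed; their part in the results was not tested. Alternatives were pseudocounts of 1 and 0.01, other filters and scalings, eBayes without a trend, limma voom on recovered reads, the replicate block and leaving out each library.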

Additional observations from a re-analysis of the deposited data

How the results depend on the processing

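Under the 13 alternatives none of the 7 tested genes changed direction, and *Gad1*, *Gad2*, *Slc32a1* and *Slc6a5* were called lower under each alternative other than the fit with no filter on RPKM. With no filter, 24421 genes were tested, 30 were called higher and 14 lower, and of the members 0 were called higher and 1 lower, *Gad2* (limma adjusted p = 0.0345). There *Gad1* (-2.17), *Slc32a1* (-2.46), *Slc6a5* (-2.53), *Slc6a9* (-0.76) and *Slc6a11* (0.82) kept their log2 fold changes and lost the call, with adjusted p from 0.0509 to 0.307, so 1 gene of synthesis and release remained called, and 0 pathway genes were called in either direction. With a pseudocount of 1 the log2 fold changes of *Slc6a9* (-0.53) and *Slc6a11* (0.45) fell under the fold, 0 members were called higher, and 1 pathway gene was called lower instead of 2. The call of *Slc6a11* was also lost after quantile normalization (0.79, adjusted p = 0.0646, 0 members called higher), and that of *Slc6a9* without the trend (-0.76, adjusted p = 0.0724). Limma voom on recovered reads kept both calls (adjusted p = 0.00108 and 0.00184), called 451 genes of the table higher and 360 lower, and called the same 4 genes of synthesis and release.

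The replicate numbers are shared by the genotypes, and the differences between replicates correlated by 0.0475 across genes. Read sampling lowers such a correlation, so it cannot tell whether libraries of the same number were prepared together, which was not tested. With the replicate block 459 genes were called higher and 342 lower, against 440 and 322 without it, and *Slc6a11* (0.82, adjusted p = 0.0528) was no longer called, which left 0 members called higher. No other call among the members changed.

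Leaving out each library in turn, where the lone library of a genotype is assumed to vary like the others, gave log2 fold changes of -1.005 to -0.51 for *Slc6a9* and 0.71 to 0.92 for *Slc6a11*, with 0 members called higher each time. Genes of the table called higher ranged from 258 to 437 and those called lower from 212 to 266, both lowest without Homo 2, and pathway genes called lower from 1 to 2, with 1 called higher each time. The difference of -2.42 between the sets was -2.16 with a pseudocount of 1 and -2.64 with one of 0.01 (the cause was not tested), and -2.50 to -2.35 with a library left out; voom gives no value for it. For pathway genes, whose alternatives were chosen after seeing the data, 3 were called lower, *Slc12a5* besides *Psat1* and *Slc6a15*, with a pseudocount of 0.01, after median ratio scaling or quantile normalization and by voom. Depth limits *Slc6a11*, which rests on 38 to 92 reads a library, and *Slc6a13*, which rests on at most 3.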
